A study of Mus musculus with 8 samples.

Results

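Interleukin-4 and interleukin-13 turn macrophages and related myeloid cells to a state called alternative activation, and 9 genes tied to that state are described here across the 4 groups of a knockout and stimulation experiment. They are *Il4ra*, which encodes the receptor chain that both cytokines share, *Pparg*, which encodes a nuclear receptor that acts with STAT6 on lipid metabolism genes, the genes of the secreted proteins RELM-alpha (*Retnla*), Ym1 (*Chil3*) and eotaxin-2 (*Ccl24*), the transglutaminase gene *Tgm2*, and the genes of the lectin receptors CD206 (*Mrc1*), CD301b (*Mgl2*) and CD301a (*Clec10a*). All 9 were found among the 47937 gene IDs of the count tables. They were chosen by the differences that these same 8 libraries show between genotypes and with LPS, so their values are given as a description, without a test of their own.

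Bone marrow-derived dendritic cells (BMDCs) are the mixed myeloid cells that grow out of mouse bone marrow in GM-CSF, and LPS, a bacterial cell wall component, makes them mature. RNA was sequenced from 4 groups with 2 libraries each: WT and 3x*Grk*-/- cells, unstimulated or with 20 ng/ml LPS for 24 h, all of them grown in 20 ng/ml GM-CSF for about 8 days. The knockout cells, labelled Grk 3xKO, come from mice in which the genes of the G-protein coupled receptor kinases GRK2, GRK3 and GRK6 were targeted. The study describes such cells as coming from mice with Vav-iCre, floxed *Grk2* and *Grk6* (*Grk2* fl/fl, *Grk6* fl/fl) and *Grk3*-/- on a C57BL6/J background, with controls that carry no Cre. The sources do not state outright that this line was the one sequenced. In that line *Vav1*-driven Cre is active early in blood cell precursors, and *Grk3* is a germline knockout. The animals are given as older than 8 weeks. The methods speak of technical triplicates, while 2 libraries per group were analysed here, and a separate culture behind each library is not mentioned, so every SE and p below measures only the spread between these libraries.

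In the pathway these genes belong to, interleukin-4 or interleukin-13 binds receptors that contain the IL-4 receptor alpha chain, Janus kinases then phosphorylate STAT6, and STAT6 enters the nucleus and binds paired short motifs near its target genes. *Retnla*, *Chil3* and *Mrc1* are classic targets in mouse macrophages. Dendritic cells grown in GM-CSF share parts of this programme, and CD301b marks a subset of dendritic cells in skin and other tissues.

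Stretches of promoter sequence are shown so that the letters near the start of members with opposite patterns can be compared: *Retnla*, whose reads were almost only found in the knockout cells, *Chil3*, a secreted member that went the other way, and *Mgl2*, the member that was lowest after LPS relative to unstimulated WT cells. Each run holds the 250 bases before the RefSeq start of the gene in GRCm38.p6, 5′ to 3′ on the strand of the gene. Capitals mark paired STAT motifs, TTC and GAA, with 4 bases between them (TTCNNNNGAA, the spacing STAT6 favours) or with 3 between them (TTCNNNGAA).

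Retnla, chr16:48842359-48842608, plus strand: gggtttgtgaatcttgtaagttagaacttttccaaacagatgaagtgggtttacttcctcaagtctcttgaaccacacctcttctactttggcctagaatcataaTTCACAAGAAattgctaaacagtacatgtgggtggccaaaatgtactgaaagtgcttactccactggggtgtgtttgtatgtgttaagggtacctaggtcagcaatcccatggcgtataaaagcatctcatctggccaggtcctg

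Chil3, chr3:106167565-106167814, minus strand: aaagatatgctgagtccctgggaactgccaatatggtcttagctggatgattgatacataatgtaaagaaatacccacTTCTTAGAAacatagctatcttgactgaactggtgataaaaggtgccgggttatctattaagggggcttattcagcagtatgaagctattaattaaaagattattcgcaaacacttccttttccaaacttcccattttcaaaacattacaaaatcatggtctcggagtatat

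Mgl2, chr11:70130107-70130356, plus strand: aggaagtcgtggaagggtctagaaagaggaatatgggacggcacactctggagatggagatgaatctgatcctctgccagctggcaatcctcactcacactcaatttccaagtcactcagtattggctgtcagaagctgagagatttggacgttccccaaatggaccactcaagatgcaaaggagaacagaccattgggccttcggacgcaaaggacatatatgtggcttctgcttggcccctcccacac

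The stretch before *Retnla* holds a pair with 4 bases between, TTCACAAGAA, which begins 145 bases before the start. *Chil3* has no such pair in its stretch, and has TTCTTAGAA, with 3 bases between, which begins 172 bases before the start. No pair of either spacing is in the *Mgl2* stretch. Of the 9 members, 6 matched the promoter table, with 8 windows since *Pparg* has 3 starts there, and the windows of *Mrc1*, *Il4ra* and *Pparg* held neither pair. *Ccl24*, *Clec10a* and *Tgm2* were not matched. Both strands were searched, and among all 32851 windows of the same length 5.85% held the pair with 4 bases between and 7.02% the pair with 3 between. A direct repeat for PPAR receptors, AGGTCANAGGTCA, was in 0.0335% of all windows and in none of the members' windows. A match describes letters only, and a window without one leaves the rest of the gene unsearched.

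Gene counts summed to 4713305 reads in the smallest and 6933358 reads in the largest library. Levels are given in CPM, the counts of a gene relative to the size of its library, scaled over the 8 libraries by the TMM method. Log2 fold changes with their standard errors (SE) come from edgeR's quasi-likelihood fits, and a gene is said to pass where its Benjamini-Hochberg adjusted p over all genes tested is under 0.05. The targeted kinases *Grk2*, *Grk3* and *Grk6* had lower levels in 3x*Grk*-/- cells with and without LPS, with no overlap between the genotypes, although their transcripts were still counted. *Grk3* kept most of its level, with 338 and 341 CPM in WT and 267 and 263 CPM in 3x*Grk*-/- libraries without LPS, and 460 and 444 against 343 and 335 CPM with LPS. *Grk2* had 320 and 321 CPM in WT and 151 and 146 CPM in 3x*Grk*-/- libraries without LPS, and 677 and 736 against 199 and 184 CPM with LPS, and *Grk6* had 85.4 and 83.4 against 36.9 and 37.0 CPM in unstimulated cells, a log2 fold change of -1.19 (SE 0.085), which was -1.54 (SE 0.0978) with LPS. Counts per gene do not show which exons the reads came from. One knockout library with LPS (replicate 2) had 2.16% of its reads on *Gm42418*, a gene that overlaps ribosomal RNA, against 0.273% to 0.638% in the 7 others. Its members' levels lay close to those of the other library of its group, and leaving it out left 8 of the 9 members past the threshold between genotypes with LPS.

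Set side by side, 3x*Grk*-/- cells carried another mix of these genes, not a higher or a lower level of all of them. In unstimulated cells *Retnla*, *Mrc1* and *Il4ra* were higher in 3x*Grk*-/- than in WT libraries, while *Mgl2*, *Clec10a*, *Pparg* and *Chil3* were lower. With LPS *Retnla*, *Ccl24*, *Mrc1*, *Tgm2*, *Pparg* and *Il4ra* were higher, and *Chil3*, *Clec10a* and *Mgl2* were lower. By count, 7 of the 8 members tested without LPS passed, 3 higher and 4 lower, where 44.7% of all genes tested passed, and 9 of 9 passed with LPS, 6 higher and 3 lower, where 48.6% of all genes passed. Since the members were picked on these contrasts, nothing is read from these counts. The median log2 fold change over the tested members was -0.36 without and 1.5 with LPS, and over all genes tested it was -0.00 and -0.01.

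**Figure D1:**
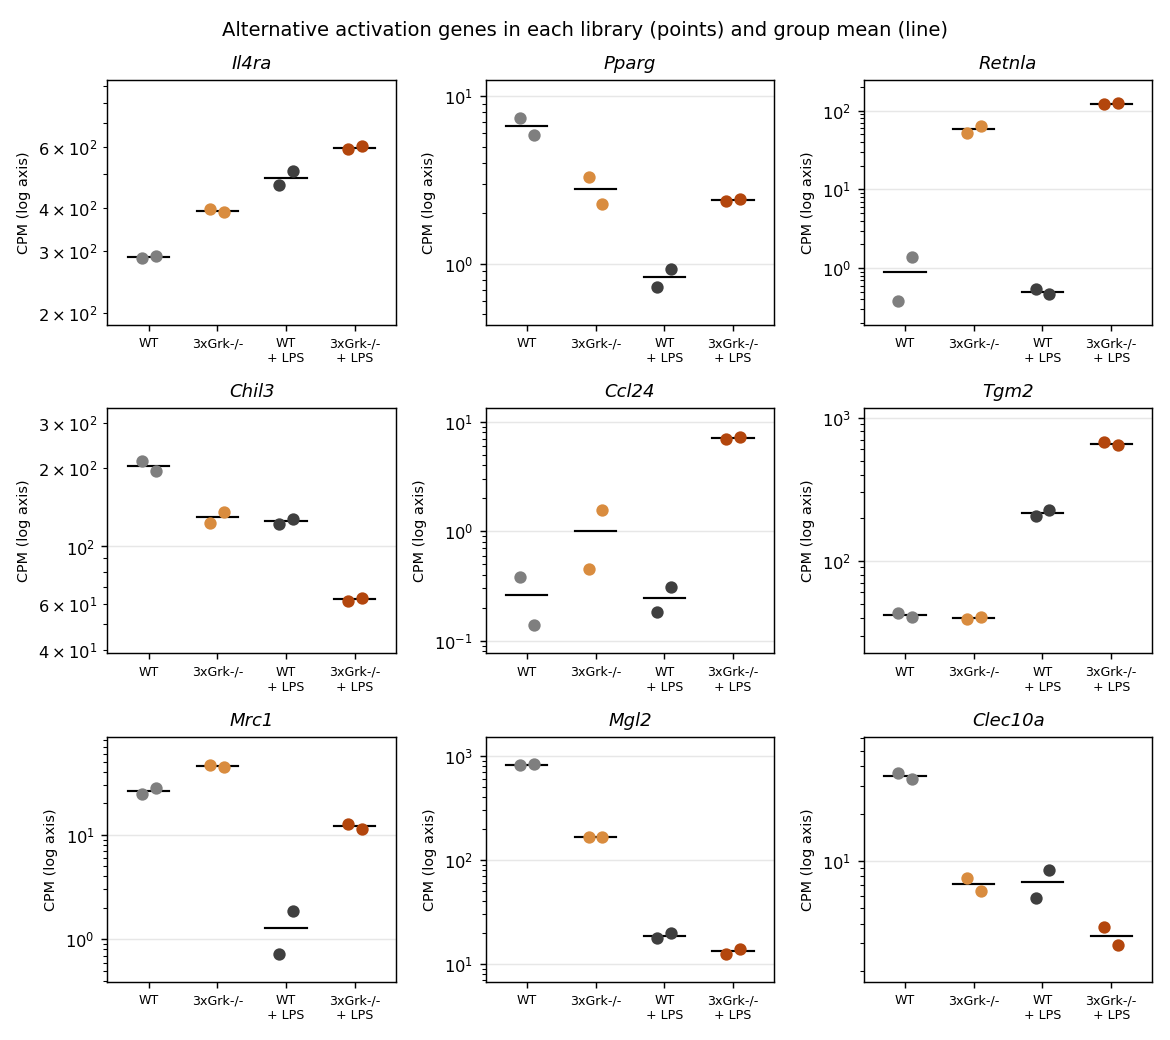
CPM on log axes of the 9 members in each of the 8 libraries (points) with the mean of the 2 libraries of a group (line), for WT and 3xGrk-/- cells with and without LPS. *Retnla* lies at 52.4 CPM or more in every 3xGrk-/- library and at 1.40 CPM or less in every WT library, and *Mgl2* falls from 825 and 827 CPM in WT cells to 17.6 and 19.8 CPM with LPS.

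*Il4ra* (ENSMUSG00000030748, chr7:125552120-125579474, plus strand, here and below in GRCm38) had 287 and 291 CPM in unstimulated WT libraries, 396 and 390 CPM in unstimulated 3x*Grk*-/-, 467 and 511 CPM in LPS-stimulated WT and 593 and 601 CPM in LPS-stimulated 3x*Grk*-/- libraries. The 4 groups stood in that order without any overlap. The differences were small: the log2 fold change of 3x*Grk*-/- over WT was 0.44 (SE 0.0427) without and 0.29 (SE 0.0599) with LPS, or 1.36 and 1.22 times. LPS raised the level to a like degree in both genotypes, with a log2 fold change of 0.76 (SE 0.0528) in WT and 0.60 (SE 0.0517) in 3x*Grk*-/- cells. The difference between those responses, -0.16 (SE 0.0738), did not pass.

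*Pparg* (ENSMUSG00000000440, chr6:115360951-115490399, plus strand) was counted at low depth, with 39 and 42 reads in unstimulated WT, 22 and 13 in unstimulated 3x*Grk*-/-, 4 and 6 in LPS-stimulated WT and 13 and 15 in LPS-stimulated 3x*Grk*-/- libraries. In CPM these were 7.45 and 5.89, 3.29 and 2.26, 0.726 and 0.928, and 2.36 and 2.43. Unstimulated WT libraries were highest and LPS-stimulated WT libraries lowest, and the knockout groups overlapped each other in between. The genotype difference therefore turned its direction, from a log2 fold change of -1.21 (SE 0.281) without to 1.5 (SE 0.466) with LPS. The latter rests on few reads, and leaving out any 1 of the 4 libraries with LPS gave 1.36 to 1.70 and no longer passed, nor did it pass in DESeq2. LPS lowered *Pparg* in WT cells, with a log2 fold change of -2.94 (SE 0.384), and in 3x*Grk*-/- cells the value was -0.23 (SE 0.365), with libraries that overlapped.

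Among the secreted factors, *Retnla* (ENSMUSG00000061100, chr16:48842551-48844461, plus strand) had the widest gap between the genotypes of any member. RELM-alpha is a small cysteine-rich protein secreted by alternatively activated macrophages. Its gene had 2 and 10 reads in unstimulated WT, 350 and 367 in unstimulated 3x*Grk*-/-, 3 and 3 in LPS-stimulated WT and 659 and 759 in LPS-stimulated 3x*Grk*-/- libraries. In CPM these were 0.382 and 1.40, 52.4 and 63.7, 0.544 and 0.464, and 120 and 123. Both knockout groups lay far above both WT groups, and the WT groups overlapped. The ratio of 3x*Grk*-/- to WT in summed CPM was 59.4 without LPS (exact 95% interval 33.8 to 115, counting error only) and 243 with LPS (111 to 662), and the fitted log2 fold changes were 5.87 (SE 0.211) and 7.86 (SE 0.198). The value without LPS moves with a single WT library, from 5.35 without replicate 1 to 7.16 without replicate 2 of unstimulated WT. LPS raised *Retnla* in 3x*Grk*-/- cells by a log2 fold change of 1.07 (SE 0.0923), while the value in WT cells, -0.92 (SE 0.719), did not pass and turned to 0.37 without replicate 2 of unstimulated WT.

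*Ccl24* (ENSMUSG00000004814, chr5:135569937-135573049, minus strand), whose product draws eosinophils through CCR3, was close to the limit of detection outside 1 group. It had 2 and 1 reads in unstimulated WT, 3 and 9 in unstimulated 3x*Grk*-/-, 1 and 2 in LPS-stimulated WT and 38 and 45 in LPS-stimulated 3x*Grk*-/- libraries, or 0.382 and 0.140, 0.449 and 1.56, 0.181 and 0.309, and 6.91 and 7.30 CPM. The LPS-stimulated knockout libraries stood clear above all others. Relative to WT the ratio of summed CPM with LPS was 28.4 (exact 95% interval 9.38 to 140, counting error only), with a fitted log2 fold change of 4.71 (SE 0.487). Without LPS the gene had too few reads to be tested, and the ratio was 3.98 (1.07 to 22.0).

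*Chil3* (ENSMUSG00000040809, chr3:106147554-106167564, minus strand), the gene of the chitinase-like protein Ym1, went the other way. It had 214 and 196 CPM in unstimulated WT libraries, 123 and 136 CPM in unstimulated 3x*Grk*-/-, 122 and 128 CPM in LPS-stimulated WT and 61.8 and 63.2 CPM in LPS-stimulated 3x*Grk*-/- libraries. WT libraries were above 3x*Grk*-/- libraries at either stimulation, by 1.58 times without and 2.0 times with LPS (log2 fold changes of -0.66, SE 0.0527, and -1.0, SE 0.0801). LPS lowered it in both genotypes, with log2 fold changes of -0.71 (SE 0.0658) in WT and -1.05 (SE 0.0755) in 3x*Grk*-/- cells. Of the 1629 stretches of 50 bases in its exons, 26.9% also occur in another gene, mostly *Chil4* and *Gm6522*, so reads could be split between copies. *Chil4*, the gene of the close relative Ym2, had 1 read in all 8 libraries together, and *Retnlg*, a relative of *Retnla*, had 10 and 17 reads in unstimulated WT and 18 and 15 in unstimulated 3x*Grk*-/- libraries (log2 fold change 0.28, SE 0.376, which did not pass).

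*Tgm2* (ENSMUSG00000037820, chr2:158116402-158146436, minus strand) encodes transglutaminase 2, which cross-links proteins and is a marker of alternative activation in both mouse and human macrophages. Unstimulated libraries did not separate by genotype, with 43.0 and 40.4 CPM in WT and 39.0 and 40.6 CPM in 3x*Grk*-/- cells (log2 fold change -0.06, SE 0.0986). After LPS the level was 206 and 227 CPM in WT and 672 and 641 CPM in 3x*Grk*-/- libraries. *Tgm2* thus rose with LPS in both genotypes, 5.21 times in WT and 16.5 times in 3x*Grk*-/- cells, and the genotypes then differed by 3.03 times (log2 fold change 1.60, SE 0.0637).

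*Mrc1* (ENSMUSG00000026712, chr2:14229392-14332057, plus strand) encodes the mannose receptor, which takes up glycoproteins. The libraries held 24.6 and 28.3 CPM in unstimulated WT libraries, 47.1 and 45.0 CPM in unstimulated 3x*Grk*-/-, 0.726 and 1.86 CPM in LPS-stimulated WT and 12.7 and 11.5 CPM in LPS-stimulated 3x*Grk*-/- cells. Knockout libraries were above WT libraries at either stimulation and no 2 groups overlapped. The difference was 1.72 times without LPS (log2 fold change 0.79, SE 0.106) and 8.94 times with LPS (3.16, SE 0.321), where WT had 16 reads in all and the value was 4.03 without replicate 2 of LPS-stimulated WT. LPS lowered *Mrc1* by 19.7 times in WT and by 3.81 times in 3x*Grk*-/- cells, and the log2 fold change in WT went from -4.30 to -5.16 without that library.

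*Mgl2* (ENSMUSG00000040950, chr11:70130329-70137550, plus strand) and its neighbour *Clec10a* (ENSMUSG00000000318, chr11:70156197-70170834, plus strand) encode a pair of C-type lectins that bind galactose and its derivatives. *Mgl2* had 825 and 827 CPM in unstimulated WT libraries, 168 and 166 CPM in unstimulated 3x*Grk*-/-, 17.6 and 19.8 CPM in LPS-stimulated WT and 12.5 and 13.9 CPM in LPS-stimulated 3x*Grk*-/- libraries. Its level was 4.95 times lower in 3x*Grk*-/- cells without LPS (log2 fold change -2.31, SE 0.0426), and most of the gap was gone with LPS, where the log2 fold change was -0.50 (SE 0.160) and did not pass in DESeq2, nor without replicate 2 of LPS-stimulated WT (-0.40) or replicate 1 of LPS-stimulated 3x*Grk*-/- (-0.42). LPS lowered it by 44.0 times in WT and by 12.5 times in 3x*Grk*-/- cells. *Clec10a* followed at a lower level, with 36.1 and 33.1, 7.78 and 6.43, 5.81 and 8.82, and 3.82 and 2.92 CPM in the same order of groups. Unstimulated WT libraries were the highest for both lectins, and for *Clec10a* unstimulated knockout and LPS-stimulated WT libraries overlapped. The log2 fold change of *Clec10a* was -2.26 (SE 0.154) without and -1.14 (SE 0.294) with LPS, the latter not passing in DESeq2 or without replicate 2 of LPS-stimulated WT (-0.78). These genes share sequence with each other, 13.1% of the 50-base stretches of *Mgl2* and 9.02% of those of *Clec10a* being found in another gene, so part of the reads could be split between them. *Retnla*, *Mrc1*, *Ccl24*, *Tgm2*, *Il4ra* and *Pparg* had no such shared stretch.

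**Figure D2:**
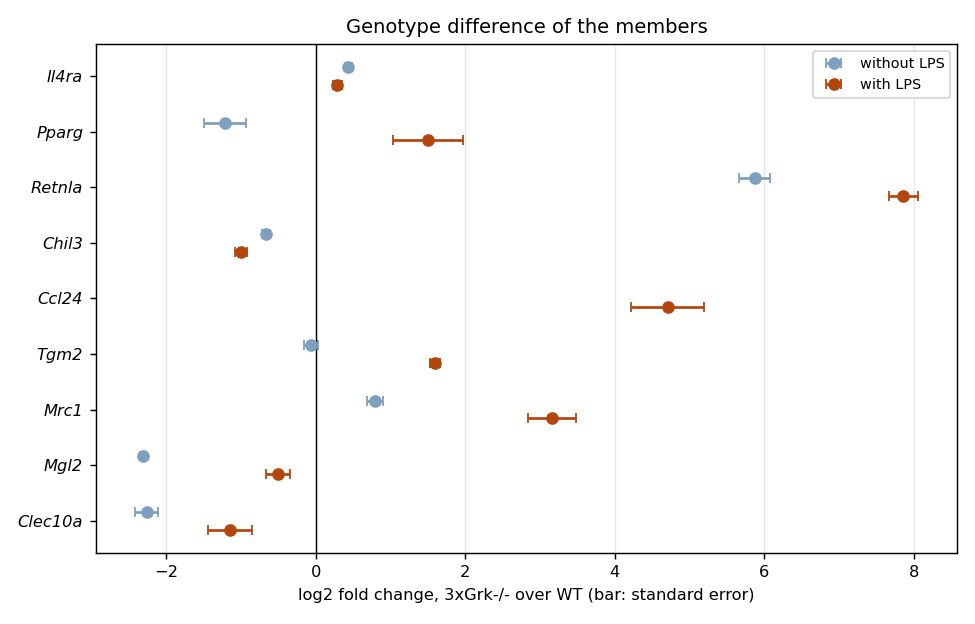
Log2 fold change of 3xGrk-/- over WT cells (x axis, with its standard error as bar) for the 9 members without LPS (blue) and with LPS (orange), *Ccl24* being tested with LPS only. *Retnla* stands farthest right, at 5.87 and 7.86, *Mgl2* and *Clec10a* lie left of zero under both conditions, and *Pparg*, on few reads, changes side, from -1.21 to 1.5.

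Read along the LPS axis, 7 of 9 members passed in WT cells, 2 higher and 5 lower with LPS, where 60.3% of all genes tested passed. In 3x*Grk*-/- cells 8 of 9 passed, 4 higher and 4 lower, beside 55.4% of all genes. *Mrc1*, *Mgl2*, *Clec10a* and *Chil3* were lower with LPS in both genotypes, and *Tgm2* and *Il4ra* were higher in both. The median over the members was -0.92 in WT and -0.23 in 3x*Grk*-/- cells, beside -0.01 over all genes in each. The response itself differed between the genotypes by the interaction term for 7 of 9 members, 6 with a higher and 1 (*Chil3*) with a lower value in 3x*Grk*-/- cells, beside 32.5% of all genes tested. *Pparg*, *Mrc1*, *Mgl2* and *Clec10a*, all lower with LPS in WT cells, had a smaller drop in 3x*Grk*-/- cells, where that of *Pparg* did not pass, and *Tgm2* had a larger rise. *Retnla* rose in 3x*Grk*-/- cells and did not pass in WT cells, and its interaction no longer passed without replicate 2 of unstimulated WT (0.71) or of LPS-stimulated WT (1.88).

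**Figure D3:**
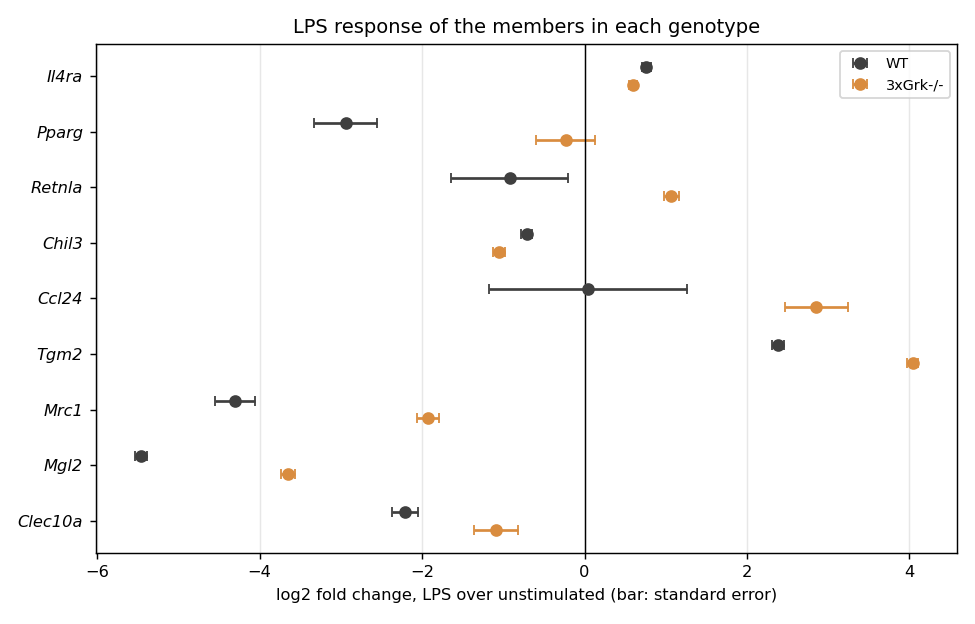
Log2 fold change of LPS-stimulated over unstimulated cells (x axis, with its standard error as bar) for the 9 members in WT (black) and 3xGrk-/- cells (orange). *Mgl2* lies at -5.46 in WT and -3.65 in 3xGrk-/- cells, *Mrc1* at -4.30 and -1.93, and *Tgm2* at 2.38 and 4.04.

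Per kilobase of exon, a scale on which levels of different genes can be compared, the leading member was *Mgl2* in unstimulated WT, *Retnla* in both knockout groups and, overlapping with *Chil3*, *Il4ra* in LPS-stimulated WT libraries. In unstimulated WT libraries *Mgl2* led with 394 and 395 CPM per kb, which was 65.4% and 66.6% of the summed level of the 9 members, followed by *Chil3* with 131 and 120. In unstimulated 3x*Grk*-/- libraries *Retnla* (87.4 and 106 CPM per kb), *Mgl2* (80.0 and 79.3), *Chil3* (75.4 and 83.6) and *Il4ra* (65.9 and 64.9) were of similar size, and *Mgl2* and *Chil3* overlapped. LPS-stimulated WT libraries were led by *Il4ra* (77.9 and 85.2) and *Chil3* (74.9 and 78.4), which overlapped, and then *Tgm2* (44.7 and 49.2). LPS-stimulated 3x*Grk*-/- libraries were led by *Retnla*, with 200 and 205 CPM per kb or 40.2% and 41.1% of the sum, and by *Tgm2*, with 146 and 139. The sum itself was 602 and 593 CPM per kb in unstimulated WT, 329 and 354 in unstimulated 3x*Grk*-/-, 209 and 227 in LPS-stimulated WT and 498 and 499 in LPS-stimulated 3x*Grk*-/- libraries. It was thus lower in the knockout without LPS and higher with LPS.

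**Figure D4:**
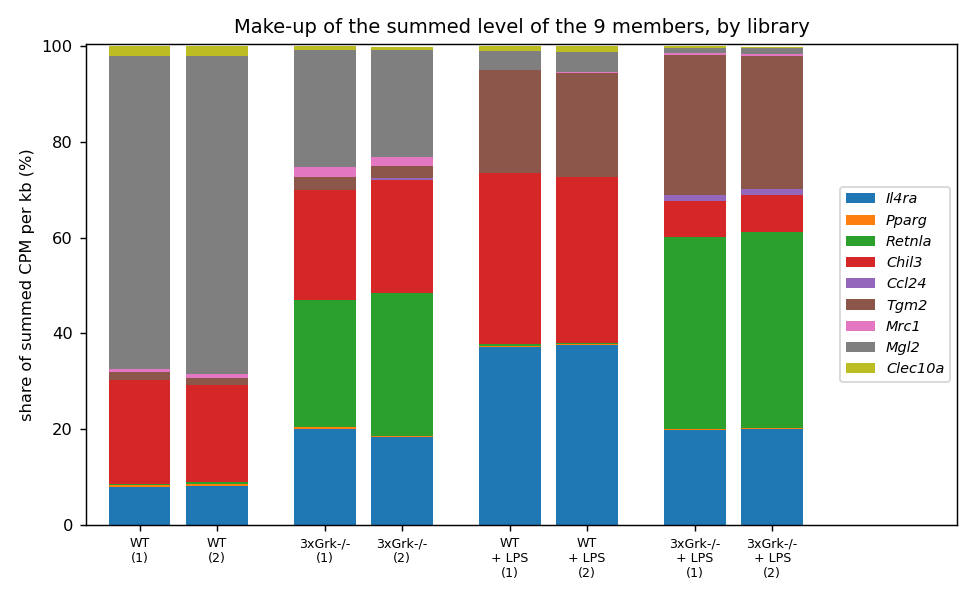
Share in percent (y axis) of each of the 9 members in their summed CPM per kb, for each of the 8 libraries (bars, replicate in brackets). *Mgl2* takes 65.4% and 66.6% in WT libraries, and *Retnla* takes 26.6% and 30.0% in 3xGrk-/- libraries and 40.2% and 41.1% with LPS, against 0.434% or less in every WT library.

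Markers of other cells moved with these groups. The summed level of 6 macrophage markers (*Csf1r*, *Adgre1*, *Cd68*, *Mertk*, *Fcgr1* and *C1qa*) was 683 to 716 CPM in unstimulated WT libraries, 1316 to 1371 in unstimulated 3x*Grk*-/-, 323 to 325 in LPS-stimulated WT and 2365 to 2404 in LPS-stimulated 3x*Grk*-/- libraries. All 6 were higher in the knockout with LPS, and without LPS 4 were higher while *Fcgr1* (log2 fold change -0.64, SE 0.116) and *C1qa* (-1.61, SE 0.11) were lower. Those of 5 eosinophil markers (*Prg2*, *Epx*, *Siglecf*, *Ccr3* and *Il5ra*) summed to 905 to 961 and 896 to 966 CPM in WT without and with LPS, and to 54.0 to 57.6 and 36.2 to 42.4 CPM in 3x*Grk*-/- libraries. All 5 were lower in the knockout with LPS, and without LPS 4 were, while *Siglecf*, at 20.4 and 20.5 CPM in WT and 19.0 and 16.5 CPM in 3x*Grk*-/- libraries, did not pass (log2 fold change -0.20, SE 0.14). The 6 markers of conventional dendritic cells summed to 5999 to 6028 and 3856 to 3917 CPM in unstimulated WT and 3x*Grk*-/- libraries, and to 5584 to 5937 and 4778 to 4890 CPM with LPS. A large part of that sum came from *H2-Ab1*, an MHC class II gene, and *Ccr7*, the gene of a chemokine receptor of mature dendritic cells. Without LPS *H2-Ab1* was at 3528 and 3524 CPM in WT and 1128 and 1082 CPM in 3x*Grk*-/- libraries, and *Zbtb46* and *Dpp4* were lower in the knockout too, while *Flt3* (log2 fold change 0.95, SE 0.127), *Ccr7* (0.24, SE 0.0317) and *Itgax* (0.19, SE 0.0336) were higher. *Itgax*, the gene of CD11c, had 941 to 1096 CPM in the unstimulated libraries of both genotypes, and 63.1 and 70.9 CPM in WT and 336 and 344 CPM in 3x*Grk*-/- libraries with LPS. With LPS *Itgax* (2.34, SE 0.0727) and *Flt3* (1.35, SE 0.115) were higher in the knockout, and *Dpp4* (-0.55, SE 0.0744), *H2-Ab1* (-0.42, SE 0.0555), *Zbtb46* (-0.40, SE 0.0736) and *Ccr7* (-0.32, SE 0.0481) were lower. The 8 neutrophil markers lay at 698 to 742 and 515 to 532 CPM without and at 335 to 391 and 186 to 202 CPM with LPS. The 6 basophil and mast cell markers summed to 32.9 to 52.1 CPM over all libraries, largely through *Cpa3* and *Gata2*. Of these lineage markers *Mcpt8*, *Prss34* and *Ms4a2* were lower in 3x*Grk*-/- cells with and without LPS, and *Gata2* was higher without LPS (1.41, SE 0.169). The 5 T cell and ILC2 markers summed to 122 to 129 CPM in unstimulated WT and 166 to 176 CPM in unstimulated 3x*Grk*-/- libraries. With LPS the sums were 207 to 233 and 538 to 549 CPM. *Il7r*, higher in the knockout, made up 518 and 532 CPM of the last group. *Rora* was lower in the knockout without (log2 fold change -0.69, SE 0.167) and with LPS (-1.39, SE 0.126). *Cd3e*, *Cd3g* and *Gata3* had 7 reads or fewer in every library. The 4 stromal and adipocyte markers summed to 1.94 CPM or less without LPS. With LPS they summed to 1.24 to 4.17 CPM in WT and 7.45 to 9.24 CPM in 3x*Grk*-/- libraries. B cell markers stayed at 0.486 CPM or less, and no marker of any list was at 0 in all libraries. The part of these markers in the members' differences was not tested. In bulk RNA, fewer cells of a type and less RNA per cell cannot be told apart.

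The genes whose course over the 8 libraries was most like that of a member were found by the root mean square distance of their centred log2 CPM, among 9313 genes with a mean log2 CPM of at least 3. The one nearest to *Retnla* was *Ctsl*, the gene of the lysosomal protease cathepsin L (distance 0.75), against a spread of 3.14 for *Retnla* itself. *Chil3* had *Trerf1* (0.07) and *Jcad* (0.09) nearest, *Il4ra* had *N4bp1* and *Med15* (0.05 each) and *Tgm2* had *Slfn8* (0.15) and *H2-T22* (0.20). The nearest genes to *Mrc1* were *Tifab* (0.35) and *Itgax* (0.37), the gene of CD11c. *Ccl24* had *Glrx* (0.34) and *Slc7a8* (0.39), and *Mgl2* had *Grap2* (0.23) and *Cldn1* (0.24). *Clec10a* was nearest to *Cdca5* (0.20) and *Mybl2* (0.22), and *Pparg* to *Uhrf1* and *Cdt1* (0.23 each). Among the members, *Chil3* and *Clec10a* were the pair nearest to each other (0.68) and *Retnla* and *Mgl2* the pair farthest apart (4.52). The spreads of *Chil3* and *Clec10a* themselves were 0.61 and 1.18, and that of *Il4ra* was 0.39. Genes with small spreads can lie near each other without a shared course. These distances describe 8 libraries in 4 groups and carry no test.

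The 9 members were set beside 50 further genes, listed by role and called pathway genes here. Besides the pathway itself they include regulators, PPAR gamma targets and the 3 GM-CSF receptor genes, which were higher under both conditions. Of these, 43 could be tested without LPS, and 28 were higher and 10 lower in 3x*Grk*-/- cells. With LPS 41 could be tested, with 24 higher and 13 lower. The share of all genes that passed was 44.7% and 48.6%, as above, and the median log2 fold change over the list was 0.36 and 0.66. Along the LPS axis 16 were higher and 22 lower of 44 tested in WT cells, beside 60.3% of all genes that passed. In 3x*Grk*-/- cells 19 were higher and 15 lower, beside 55.4% of all genes. The interaction passed with a higher ratio of 3x*Grk*-/- to WT under LPS for 10 and a lower one for 17 of the 44, beside 32.5% of all genes. This list, too, was drawn up with results of these libraries known.

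Of the ligands, *Il4* had 5 reads or fewer in every library. *Il13* had 3 and 3 reads in unstimulated WT, 4 and 10 in unstimulated 3x*Grk*-/-, 0 and 3 in LPS-stimulated WT and 31 and 21 in LPS-stimulated 3x*Grk*-/- libraries. The LPS-stimulated knockout libraries stood clear above all others. Relative to WT the ratio of summed CPM with LPS was 17.8 (exact 95% interval 5.76 to 89.0, counting error only). Without LPS *Il13* had too few reads to be tested. The knockout libraries there lay just above those of WT, with a ratio of 2.32 (0.837 to 7.36). Of the receptor chains, *Il13ra1* was at 34.5 and 28.6 CPM in LPS-stimulated WT and 59.8 and 67.4 CPM in LPS-stimulated 3x*Grk*-/- libraries (log2 fold change 1.02, SE 0.113, edgeR adjusted p = 1.66e-07), with -0.08 (SE 0.0741) without LPS. *Il2rg*, the common gamma chain that pairs with the IL-4 receptor, was higher in the knockout without (0.36, SE 0.0608) and with LPS (0.84, SE 0.0759). *Il13ra2*, which encodes a decoy receptor, had no reads in any library.

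Between genotypes the kinase genes and *Stat6* differed by a log2 fold change of at most 0.38 in size. With LPS all 4 kinase genes rose in both genotypes, by 0.50 to 0.84 in WT and 0.14 to 0.45 in 3x*Grk*-/- cells, and *Stat6* rose in WT (0.44, SE 0.0544), with -0.01 (SE 0.055) in 3x*Grk*-/- cells. *Stat6* had 240 and 232 CPM in unstimulated WT libraries, 246 and 249 CPM in unstimulated 3x*Grk*-/-, 313 and 324 CPM in LPS-stimulated WT and 237 and 253 CPM in LPS-stimulated 3x*Grk*-/- libraries. Its log2 fold change between genotypes was 0.07 (SE 0.0466) without LPS, which did not pass, and -0.38 (SE 0.0619, edgeR adjusted p = 2.92e-05) with LPS. Among the kinases, *Jak1* and *Jak3* were higher in unstimulated 3x*Grk*-/- cells (0.33 each, SE 0.0458 and 0.0838), *Jak2* was lower in them (-0.14, SE 0.0327), and with LPS *Jak2* (-0.38, SE 0.0556) and *Tyk2* (-0.29, SE 0.0589) were lower. Of the genes that feed back on cytokine signalling, *Socs1* (0.93, SE 0.0895) and *Socs3* (0.86, SE 0.0835) were higher in unstimulated 3x*Grk*-/- cells and also with LPS (0.42, SE 0.0784, and 1.02, SE 0.0611). *Cish*, a STAT5 target gene, was higher without (0.36, SE 0.0403) and lower with LPS (-0.45, SE 0.0582), and the phosphatase gene *Ptpn6* was lower in both (-0.24, SE 0.0473, and -0.78, SE 0.0716). The log2 fold changes of *Csf2ra*, *Csf2rb* and *Csf2rb2*, the GM-CSF receptor genes, ran from 0.50 to 0.59 without and from 0.52 to 0.68 with LPS, all 3 higher in 3x*Grk*-/- cells.

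Regulators did not share a direction, with 6 higher and 3 lower of 10 tested without LPS and 6 higher and 3 lower of 9 tested with LPS. *Cebpb*, whose product drives macrophage genes, had 26.6 and 12.2 CPM in WT and 95.1 and 109 CPM in 3x*Grk*-/- libraries without LPS, and 18.9 and 22.3 CPM in LPS-stimulated WT and 205 and 146 CPM in LPS-stimulated 3x*Grk*-/- libraries, with log2 fold changes of 2.47 (SE 0.0958, edgeR adjusted p = 9.48e-143) and 3.08 (SE 0.138, edgeR adjusted p = 7.1e-14). *Irf4*, a STAT6 target needed for *Mgl2*-expressing dendritic cells and for alternative activation, was lower in the knockout under both conditions: 416 and 405 against 267 and 281 CPM without LPS (-0.59, SE 0.0428) and 374 and 367 against 157 and 153 CPM with LPS (-1.26, SE 0.062). *Klf4*, which encodes a partner of STAT6, changed side, from -0.43 (SE 0.137) without to 2.09 (SE 0.226) with LPS, as *Pparg* did on few reads. *Rxra*, the gene of the receptor that pairs with PPAR gamma, was higher in 3x*Grk*-/- cells by 0.26 (SE 0.098) and 1.42 (SE 0.131), and *Nr1h3*, the LXR alpha gene, by 1.63 (SE 0.427) and 3.07 (SE 0.265). *Egr2* was higher (0.54, SE 0.0657, and 0.94, SE 0.194) and *Myc* lower (-0.51, SE 0.111, and -1.03, SE 0.291). *Ppargc1b* was higher without LPS (1.03, SE 0.312) and had too few reads to be tested with LPS.

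Other alternative activation genes moved in both directions. *Fn1*, the fibronectin gene, was at 48.1 and 44.0 CPM in WT libraries without LPS and at 1765 and 1757 CPM in those of the knockout (log2 fold change 5.26, SE 0.0469), and with LPS the difference was 2.59 (SE 0.133). *Alox15*, whose lipoxygenase is also abundant in eosinophils, was lower in the knockout: 73.4 and 73.4 against 6.13 and 7.29 CPM without LPS (-3.46, SE 0.131), and 42.8 and 49.2 against 0.364 and 0.811 CPM with LPS (-6.22, SE 0.261). *Cd209a*, a DC-SIGN gene of dendritic cells and monocytes, had 84 and 85 reads in unstimulated WT and 0 and 3 in unstimulated 3x*Grk*-/- libraries, and 1 or fewer in every library with LPS. *Msr1*, a scavenger receptor gene, was higher in it, with 62.1 and 64.9 against 287 and 294 CPM without LPS (2.19, SE 0.0568) and 20.7 and 14.9 against 294 and 294 CPM with LPS (4.06, SE 0.103). In all, 7 genes of this role were higher and 5 lower of 13 tested without LPS, and 6 were higher and 4 lower of 11 tested with LPS.

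Of the targets of PPAR gamma, all 6 tested were higher in 3x*Grk*-/- cells without LPS, where *Pparg* itself was lower. With LPS, where *Pparg* was higher on few reads and did not pass in DESeq2, 4 of 6 were higher and 1 lower. Among all genes tested, 22.1% were higher without and 24.7% with LPS. *Lpl*, the lipoprotein lipase gene, had 641 and 659 CPM in WT libraries without LPS and 3232 and 3270 CPM in those of the knockout (log2 fold change 2.32, SE 0.0308), and 233 and 218 against 707 and 736 CPM with LPS (1.68, SE 0.0628). *Plin2*, which encodes a lipid droplet coat protein, differed by 0.58 (SE 0.0582) without and 1.72 (SE 0.0636) with LPS, and *Fabp4*, a fatty acid binding protein gene, by 1.03 (SE 0.29) and 1.65 (SE 0.0893). The targets without a test were *Angptl4* and *Pdk4*.

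**Figure D5:**
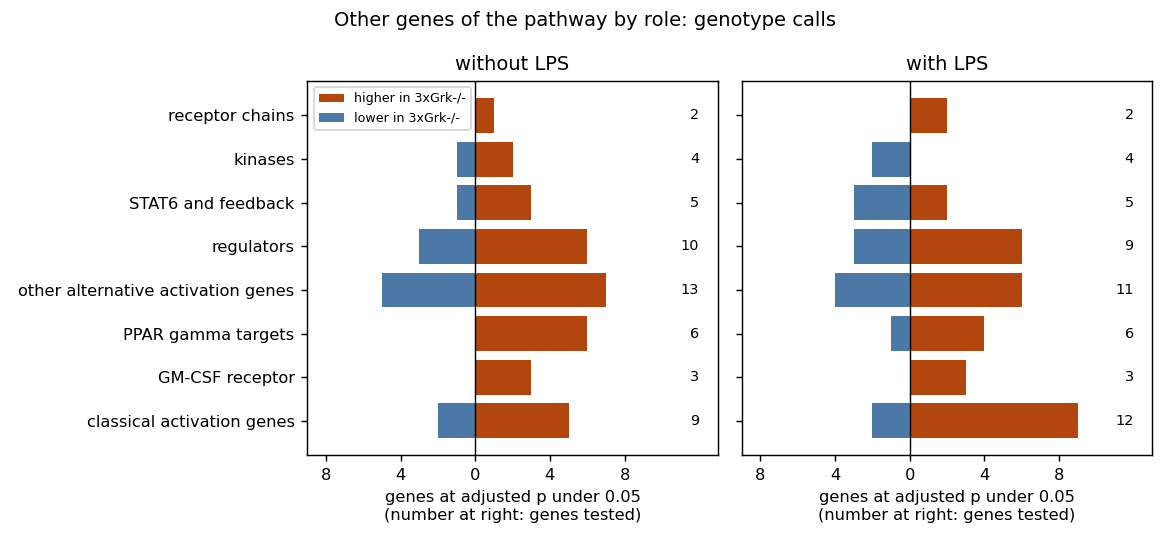
Number of further pathway genes and of classical activation genes (x axis) that were higher (orange, right) or lower (blue, left) in 3xGrk-/- than in WT cells at an adjusted p under 0.05, by role and for both conditions, with the number of genes tested at the right. Regulators and other alternative activation genes fall on both sides, all 6 tested PPAR gamma targets are higher without LPS, and all 3 GM-CSF receptor genes are higher under both conditions.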

How the data were processed

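The authors isolated RNA, sequenced stranded mRNA libraries, aligned the reads to mm10 with STAR and counted them on genes with featureCounts. The annotation release and strand setting are not given in the sources used here. The deposited values are counts of reads per gene without normalization, in 1 table per stimulation; all 8 libraries were used. Of 47937 gene IDs, 47310 matched GENCODE M21 without version, which gave names, coordinates and merged exon lengths, and 0.0468% of the counts lay on unmatched IDs. Promoter windows are RefSeq sequences of GRCm38.p6.

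Counts were filtered with filterByExpr, scaled by TMM and fitted with edgeR 4.0.16 (R 4.3.3; glmQLFit and glmQLFTest, Benjamini-Hochberg adjustment over all genes tested). Genotypes were compared within each table of 4 libraries, and LPS responses and the interaction came from all 8 libraries. The exact intervals are binomial on summed reads and cover counting error only. Fits were tested on simulated counts first. DESeq2 1.42.0, other scalings and filters, a fold threshold, left-out libraries, a fixed spread and a replicate block were the alternatives.

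The members, the pathway and marker lists and the tests were chosen with earlier results of these data known. Named are all members, and of the other pathway genes those that passed with the 2 largest changes per role and comparison, with *Stat6*, *Irf4*, *Chil4* and *Retnlg* always. Outside this rule *Il4*, *Il13ra2*, *Angptl4* and *Pdk4*, which had too few reads for a test, and *Ccl17*, *Ccl22*, *Il12b* and *Marco* are named after their values were seen. Some listed genes are not reported here and were left out of the list counts.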

Additional observations from a re-analysis of the deposited data

Results flagged for a closer look

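The genotype had an effect with LPS that differed from its effect without LPS for 7 of the 9 members, by the interaction term of edgeR's quasi-likelihood test on all 8 libraries at a Benjamini-Hochberg adjusted p under 0.05, beside 32.5% of all genes tested. Of the 44 further pathway genes tested 10 passed with a positive and 17 with a negative value, and of the 12 classical activation genes 4 and 2. The naming rule took 22 of these, largely for the size of their changes, so that number says nothing of the lists. The values below are the log2 fold change of 3x*Grk*-/- over WT with LPS minus that without LPS, so that a positive value means a higher ratio with LPS. For the members they are a description, since these were chosen on the same libraries.

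Among the members, *Pparg* had a difference of 2.72 (SE 0.566), *Mrc1* of 2.37 (SE 0.338; 3.23 without replicate 2 of LPS-stimulated WT), *Retnla* of 2.0 (SE 0.717), *Mgl2* of 1.81 (SE 0.138), *Tgm2* of 1.66 (SE 0.104) and *Clec10a* of 1.12 (SE 0.345). *Chil3* was the one of the 7 with a negative value, -0.34 (SE 0.101), which did not pass in DESeq2, nor without replicate 2 of unstimulated WT (-0.26) or of unstimulated 3x*Grk*-/- (-0.27). For *Mgl2* and *Clec10a* a positive value means that WT and knockout levels lay closer together with LPS. For *Retnla* the call rests on single WT libraries: without replicate 2 of unstimulated WT the value was 0.71 and no longer passed, and without replicate 2 of LPS-stimulated WT it was 1.88 and did not pass either. *Clec10a* did not pass without replicate 1 of LPS-stimulated 3x*Grk*-/- (0.92). *Ccl24* (2.81, SE 1.37) and *Il4ra* (-0.16, SE 0.0738) did not pass. Without replicate 2 of unstimulated 3x*Grk*-/- the *Ccl24* value was 3.88 and passed.

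Of the receptor chains and kinases, *Il13ra1* had 1.11, *Il2rg* 0.48, *Jak1* -0.35, *Jak2* -0.23, *Jak3* -0.39 and *Tyk2* -0.36. *Stat6* had -0.45, and among the feedback genes *Socs1* had -0.51, *Cish* -0.81 and *Ptpn6* -0.54. The regulators *Klf4* (2.52) and *Rxra* (1.16) were relatively higher with LPS, and *Irf4* (-0.68) relatively lower. *Msr1* had 1.87, while *Alox15* had -2.76 and *Fn1* -2.68. For the lipid genes *Plin2* and *Lpl* the values were 1.14 and -0.64, and for the GM-CSF receptor gene *Csf2rb2* it was 0.17. Of the genes of classical activation, *Cxcl10* had 4.44, *Cxcl9* 2.85 and *Il1b* -0.82. *Il12b* (-1.80), *Ccl22* (-1.91) and *Ccl17* (-0.35), named after their values were seen, passed as well.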

How the results depend on the processing

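Of 592 refits of member fold changes, 546 kept their direction and their side of the threshold, 39 no longer passed, 2 came to pass and 5 turned direction, the last all for values that did not pass in the first place. Those 5 were *Retnla* with LPS in WT cells, 0.37 without replicate 2 of unstimulated WT (range over left-out libraries -1.45 to 0.37), *Ccl24* in the same contrast, -0.16 with library size only, -0.57 without replicate 2 of unstimulated WT (range -0.57 to 0.75) and -0.38 without replicate 2 of LPS-stimulated WT, and *Pparg* with LPS in 3x*Grk*-/- cells, 0.09 without replicate 1 of unstimulated 3x*Grk*-/- (range -0.45 to 0.09). Leaving out 1 library left 7 members past the threshold between genotypes without LPS and 6 to 8 with LPS, the 6 being without replicate 2 of LPS-stimulated WT, where *Pparg*, *Mgl2* and *Clec10a* no longer passed, and 5 to 8 for the interaction, the 5 being without replicate 2 of unstimulated WT, where *Retnla* and *Chil3* no longer passed.

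Counts are given in the order genotype without LPS, genotype with LPS, LPS in WT, LPS in 3x*Grk*-/- and interaction. A spread fixed at a biological coefficient of variation of 0.4, where the libraries gave 0.0306 to 0.0573, left 3, 3, 4 (LPS in 3x*Grk*-/-) and 0 (interaction) of the 7, 9, 8 and 7 members, by edgeR's likelihood ratio test. At an unadjusted p under 0.05 the interaction then counted 4 members. DESeq2, at an adjusted p under 0.05, counted 6 for the interaction. The fixed spread left 13, 18, 21, 18 and 1 of the 45, 48, 48, 46 and 33 pathway and classical activation genes beside the members. Of the 5369, 5754, 7561, 6945 and 4070 genes in all, the fixed spread left 448, 782, 1110, 850 and 72. A minimum of 10 counts in every library, which drops members that were low in 1 group, left 5 with LPS, 5 for LPS in 3x*Grk*-/- and 4 for the interaction. Asking also for a log2 fold change of size 1 or more left 4 members without LPS, 20 of those genes without LPS, 29 and 26 for LPS in WT and 3x*Grk*-/- and 13 for the interaction, and 1444, 1984, 2700, 2373 and 1375 genes in all. DESeq2 called 3086 genes without LPS and 2643 for the interaction.

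With library size only in place of TMM, the median of all genes shifted to -0.0863, -0.0944, -0.23 and -0.226 in the first 4 contrasts, and the split of higher and lower genes went from 2647 and 2722 to 1968 and 3525, from 2919 and 2835 to 2474 and 3572, from 3702 and 3859 to 2443 and 5420, and from 3510 and 3435 to 2245 and 5200. No member that passed changed direction. The replicate numbers share only a number: deviations of same-numbered libraries correlated at -0.00502 to 0.0198. With a replicate block, 5292, 5654, 7438, 6793 and 3884 genes passed, and no count moved by more than 1.5 times. Depth limits *Ccl24*, *Pparg*, the WT values of *Retnla* and the value of *Mrc1* in LPS-stimulated WT cells.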

Other observations

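Genes of classical activation, the state that LPS and interferon-gamma bring about, were measured beside the members, and 9 of 12 were higher in LPS-stimulated 3x*Grk*-/- than in LPS-stimulated WT cells as well. With LPS 2 were lower, and without LPS 5 were higher and 2 lower of 9 tested, by the adjusted p of edgeR's quasi-likelihood test, where 48.6% of all genes passed with and 44.7% without LPS. The 2 lower with LPS were *Il12b*, the gene of the interleukin-12 p40 chain, with 255 and 261 CPM in WT and 58.9 and 59.2 CPM in 3x*Grk*-/- libraries (log2 fold change -2.13, SE 0.0732), and *Marco*, a scavenger receptor gene, with 6.89 and 8.51 against 0.727 and 1.13 CPM (-3.01, SE 0.367). They are named after their values were seen. *Nos2*, which encodes the inducible nitric oxide synthase, had 25.0 and 28.0 CPM in LPS-stimulated WT and 541 and 521 CPM in LPS-stimulated 3x*Grk*-/- libraries (log2 fold change 4.32, SE 0.0783). *Ptgs2*, the cyclooxygenase-2 gene, was at 69.1 and 42.9 against 452 and 448 CPM (3.02, SE 0.119), *Il1b* at 369 and 377 against 1417 and 1454 CPM (1.94, SE 0.0566) and *Cd38* at 21.8 and 15.3 against 116 and 117 CPM (2.66, SE 0.12). The interferon-inducible chemokine genes *Cxcl10* (2.12, SE 0.0913) and *Cxcl9* (1.89, SE 0.331) were higher with LPS too, although *Cxcl10* was lower without LPS (-2.32, SE 0.274).

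A pair of chemokine genes of alternative activation are named after their values were seen. *Ccl22* was higher in 3x*Grk*-/- cells without LPS (log2 fold change 0.83, SE 0.0208) and lower with LPS (-1.07, SE 0.0385). *Ccl17* was lower in both (-1.35, SE 0.0317, and -1.69, SE 0.0578).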
